A study of Drosophila melanogaster with 14 samples.

Results

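This account follows 7 transcription regulators of the fly eye, the genes glass (gl), ocelliless or orthodenticle (oc), Pph13, sine oculis (so), eyes absent (eya), onecut and cut (ct), in Drosophila melanogaster heads. They were chosen by name: every probe set, the group of probes that reads a transcript, was taken if the platform's gene table gave exactly that symbol. Each gene had 1 probe set, so that 7 of 13966 probe sets that are not controls and 7 of 10843 named genes are described.

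Of these proteins, Eya, So, Glass, Pph13 and Orthodenticle act in a cascade that first founds the eye field and later maintains the photoreceptor. The coactivator Eya, which is also a phosphatase, binds the Six-class homeodomain protein So, and this complex is among the earliest switches of retinal fate. The zinc finger protein Glass then drives photoreceptor differentiation, and the homeodomain proteins Pph13 and Orthodenticle build the rhabdomere, the light-sensing membrane stack, and control genes of the light response and rhodopsin choice. Onecut and Cut both combine a cut-type DNA-binding domain with a homeodomain. Onecut is known as a regulator in neurons, and Cut as a marker of cone cells in the eye and a regulator of sensory organs and of some neurons outside it.

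The data are 14 single-colour Affymetrix arrays in 3 groups. Canton-S heads (CS heads, 6 arrays) are whole heads of a wild-type strain without transgenes in the labels. Rh1 heads (4 arrays) are whole heads of Rh1-GAL4/P{UAS-PABP-FLAG} flies, in which the Rh1 driver, known for its activity in outer photoreceptors (R1-R6), switches on a FLAG-tagged poly(A)-binding protein. The labels of these heads name the protein both as dPABP and as hPABP, those of the immunoprecipitates only as dPABP, and which is right was not settled here. The immunoprecipitates (IP, 4 arrays) are RNA recovered on anti-FLAG beads from heads of the same genotype and carry the source label photoreceptor cells R1-R6. About 100 heads went into each whole-head sample and about 200 into each IP. Before bead recovery the IP heads alone went through 30 min in 1% formaldehyde and sonication. Effects of those steps and of PABP binding cannot be told apart. Neither age nor sex of the flies was given, and nothing says that replicates came from separate cohorts, so p-values measure only how far these samples spread, possibly for technical reasons. The summed signal of 22 photoreceptor effector genes was 51905 to 92811 in IP, 27626 to 28398 in Rh1 heads and 77625 to 83428 in CS heads. Their list was not chosen to tell R1-R6 from other photoreceptors. The pan-neuronal gene elav lay below the filter, at a mean of 48.0 in IP and 50.3 in Rh1 heads.

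Signals below are deposited intensities after scaling the arrays to a common trimmed mean, and folds are differences of log2(signal + 32), which understate the change of low signals. A probe set was tested if its mean reached the 30th percentile of all probe sets, equal to a signal of 109.7, and called at a limma adjusted p under 0.05. All 7 passed this filter. IP arrays varied more than head arrays: the SD of log2 values within a group had a median over probe sets of 0.221 in IP, 0.0978 in Rh1 heads and 0.0964 in CS heads. They also differed in RNA quality. The 5′ over 3′ signal ratio of the eIF-4a control was 0.531, 0.0284, 0.209 and 0.0432 on IP replicates 1, 2, 3 and 4, against 0.604 to 0.678 in Rh1 heads and 0.444 to 0.593 in CS heads. IP arrays therefore appear below one by one.

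In the comparison of IP with Rh1 heads, which asked which transcripts were enriched with the tagged protein, Pph13, eya, gl and so rose, onecut fell, and oc and ct did not pass. Thus 4 of 7 members were higher, where 21.8% of all 9776 tested probe sets were called higher, and 1 of 7 was lower, where 25.7% were. No array of one group reached into the range of the other for 5 of 7 members, beside 46.7% of all tested probe sets. The median log2 fold of the members was 1.40, beside 0.01 over all tested probe sets. Without IP replicates 2 and 4 the counts were again 4 higher and 1 lower. In bulk samples a larger share of a cell type and more RNA per cell cannot be told apart.

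**Figure D1:**
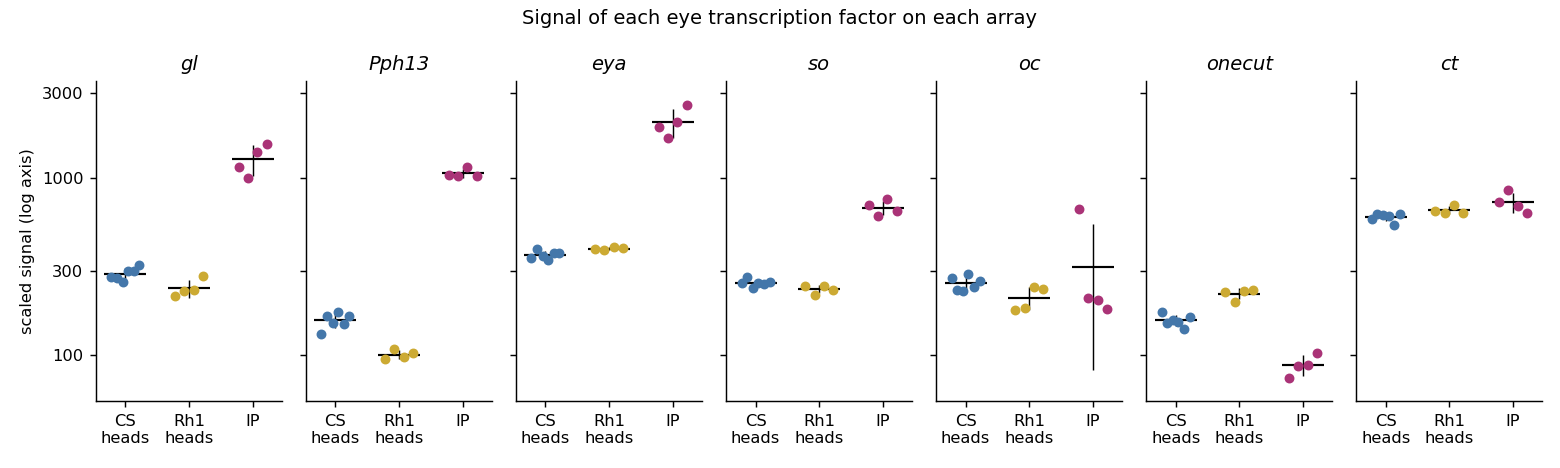
Scaled signal (log axis) of the 7 genes on each array, by group: points are arrays, the horizontal line is the group mean and the vertical line is 1 SD to either side. Every IP array of gl, Pph13, eya and so lies above all head arrays, every IP array of onecut lies below them, and oc is high on 1 IP array.

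Pph13, the paired-class homeodomain gene, had the largest fold of the 7 members. Its signals were 95.5, 108, 97.4 and 103 in Rh1 heads and 1029, 1018, 1154 and 1026 in IP. In CS heads they ran from 132 through a median of 159.6 to 175. The IP arrays lay about an order of magnitude above the Rh1 heads and close to each other. Over CS heads the ratio of the mean signals was 6.72. The log2 fold of IP over Rh1 heads was 3.03 (SE 0.08, limma adjusted p = 4.90e-08), while the mean signals, 1057 ± 64.8 (SD, n = 4) and 101 ± 5.69 (SD, n = 4), stood in a ratio of 10.5. The level in Rh1 heads was below the signal at which the filter was set. The table gives no detection calls, so how much of it is background is not known.

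The zinc finger regulator gl had signals of 215, 229, 232 and 279 in Rh1 heads and of 1145, 991, 1387 and 1554 in IP. The CS heads lay between 260.2 and 321 with a median of 287. No IP array came near the range of either head group. The log2 fold of IP over Rh1 heads was 2.25 (SE 0.15, limma adjusted p = 2.84e-06).

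The partners eya and so rose together but to different extents. For eya the signals were 395, 393, 406 and 400.0 in Rh1 heads and 1922, 1669, 2053 and 2562 in IP, a log2 fold of 2.26 (SE 0.13, limma adjusted p = 1.32e-06). In CS heads it had 344 at the lowest, 368 at the median and 398 at the highest. For so, whose product binds Eya, they were 247, 219, 245 and 234 in Rh1 heads and 699, 608, 754 and 646 in IP, a log2 fold of 1.40 (SE 0.09, limma adjusted p = 3.17e-06). The 6 CS heads of so ran from 239.5 through 255 to 274. Both genes were separated from the heads on every IP array, and their 95% intervals, 1.96 to 2.55 for eya and 1.19 to 1.61 for so, did not meet. The difference between the 2 folds was not itself tested, and folds of different probe sets depend on how each responds to its transcript.

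The neuronal regulator onecut was the member that fell. Its signals were 227, 198, 231 and 233 in Rh1 heads and 74.6, 87.3, 87.7 and 103 in IP, a log2 fold of -1.08 (SE 0.09, limma adjusted p = 1.26e-05). The CS heads lay between the groups, from 142 through 156 to 176, so that the 3 groups of this gene did not overlap. The IP level lay below the signal at which the filter was set. A list of neuronal markers, mostly of transmitters that photoreceptors do not use, was lower too by its median. Of 8 tested genes 6 fell and 0 rose, with a median log2 fold of -1.02, led by the GABA-synthesizing enzyme gene Gad1 (-3.24) and the synapsin gene Syn (-2.83). The list also holds the general neuronal genes Syn, nSyb, brp and elav, of which only Syn was called. The folds of nSyb (-0.63, limma adjusted p = 0.0837) and brp (-0.85, limma adjusted p = 0.102) did not pass, and elav was not tested. The summed signal of the 9 genes of this list on the array was 2256 to 4663 in IP and 6695 to 7541 in Rh1 heads, and no gene of the list was at 0 on every array. The part of other neurons in the onecut value was not tested.

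The homeodomain gene ct differed little between groups. Its signals were 646, 637, 706 and 636 in Rh1 heads, 734, 849.6, 691 and 633 in IP, and 544 to 628 with a median of 615 in CS heads. IP and Rh1 heads overlapped, with a log2 fold of 0.14 (SE 0.11, limma adjusted p = 0.331) and a 95% interval from -0.11 to 0.38. This interval leaves out a change of the size seen for so or onecut. The list of pigment and cone cell markers held 4 rises and 1 fall among 8 tested genes, with a median log2 fold of 0.50. The largest rises were those of bw, a transporter of eye pigment precursors (2.23), and santa-maria (1.12). The fall was that of g (-0.35). The gene with the strongest signal of the list, Pdh, averaged 9296 in IP and 10551 in Rh1 heads. Its log2 fold of -0.20 did not pass (limma adjusted p = 0.395). Because the list pools pigment and cone cells, it cannot show the share of cone cells alone. It was not chosen to leave out genes that are active in other cells as well. The summed signal of this list, which includes that of Pdh, was 17408 to 26289 in IP and 16053 to 17201 in Rh1 heads. No gene of the list was at 0 on every array. The regulator pros, which is known from cone cells, R7 and many brain neurons, fell by 1.92 (SE 0.11, limma adjusted p = 9.95e-07). The part of pigment and cone cells in the ct value was not tested.

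The homeodomain gene oc, known also as orthodenticle, could not be placed. In IP its signals were 664 on replicate 1 and 210.1, 205 and 183 on replicates 2, 3 and 4. In Rh1 heads they were 181, 186, 241 and 235, and in CS heads they ran from 232 through 252 to 285. Thus 1 IP array was far above both head groups, and the 3 others lay within the range of Rh1 heads and below every CS head array. The log2 fold of IP over Rh1 heads was 0.34 (SE 0.34, limma adjusted p = 0.439), with a 95% interval from -0.42 to 1.10. Without IP replicate 1 it was -0.062 (limma adjusted p = 0.687), and without replicates 2 and 4 it was 0.75 (limma adjusted p = 0.0870), within a range of adjusted p over all alternatives of 0.0870 to 0.687.

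Replicate 1 was also the IP array with the highest 5′ over 3′ ratio, for eIF-4a (0.531) as for the actin control (0.135 against 0.0167 to 0.0679 on the others). An excess of replicate 1 over the 3 other IP arrays as large as 1 log2 unit was seen for 88 of 9776 tested probe sets (0.900%), and for oc it was 1.52. Of the other eye members, gl was higher on replicates 3 and 4 than on replicate 1, and the log2 values of Pph13 over the Rh1 head mean lay between 2.98 and 3.16 on all 4 IP arrays. The part of RNA quality in the oc value was not tested.

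**Figure D2:**
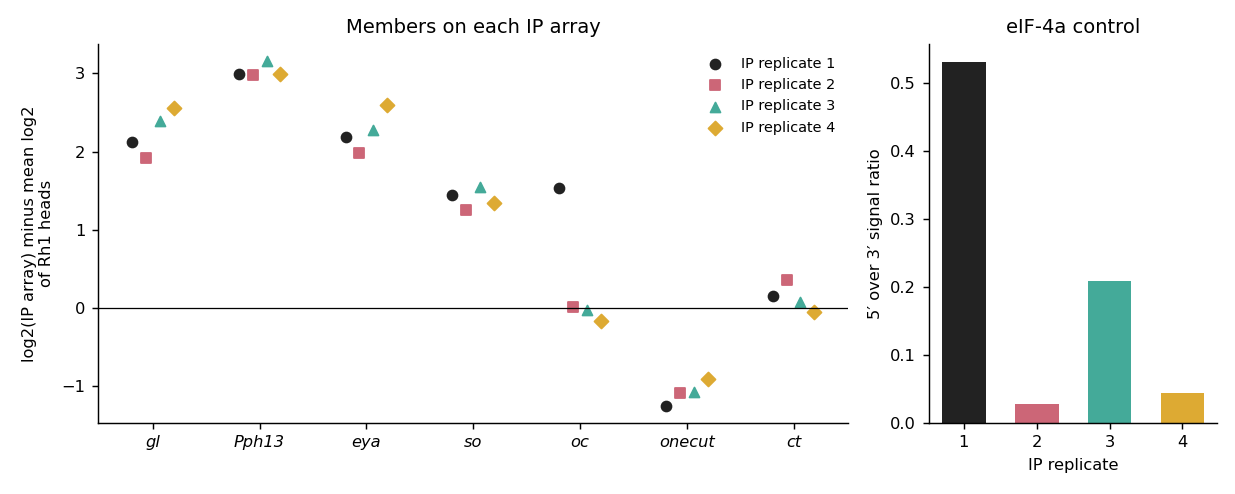
Left, log2 value of each member on each IP array minus its mean log2 value in Rh1 heads. Right, 5′ over 3′ signal ratio of the eIF-4a control on the same arrays. For gl, Pph13, eya and so all 4 IP arrays lie above 0, for onecut all lie below it, and for oc replicate 1, which has the highest ratio of 0.531, stands at 1.53 while the others lie at -0.17 to 0.01.

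Rh1 heads were then set against CS heads, both whole-head samples, to see how the regulators' levels differed between these groups. The groups also differed in RNA quality. The 5′ over 3′ ratio of the actin control was 0.421 to 0.513 in Rh1 heads and 0.317 to 0.394 in CS heads. The eIF-4a ratios given above did not overlap either, while those of the GAPDH control did. The 18S rRNA control went the other way, with ratios of 0.484 to 1.26 in Rh1 heads and 1.48 to 6.59 in CS heads. The part of RNA quality in the folds between head groups was not tested. Pph13, gl and oc fell and onecut rose, so that 3 of 7 members were lower, where 29.8% of tested probe sets were, and 1 of 7 was higher, where 24.3% were. Pph13 fell by 0.51 (SE 0.07, limma adjusted p = 2.70e-05), and no Rh1 head array reached the lowest CS head array. Onecut rose by 0.42 (SE 0.06, limma adjusted p = 5.75e-05), again without overlap. The fall of gl was -0.24 (SE 0.07, limma adjusted p = 0.0101) and that of oc -0.24 (SE 0.08, limma adjusted p = 0.0209), and in both genes the arrays of the groups overlapped.

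The oc call did not hold without Rh1 head replicate 1 (-0.18, limma adjusted p = 0.0863) or replicate 2 (-0.20, limma adjusted p = 0.0755), the 2 lowest of that group, in a range over all alternatives of 0.00754 to 0.485. In a fit of all 14 arrays neither gl (limma adjusted p = 0.109, the highest of its alternatives, from 0.00216) nor oc passed. The 3 other members did not pass. The log2 fold was -0.10 for so (95% interval -0.21 to 0.01), 0.11 for eya (0.00065 to 0.22) and 0.12 for ct (-0.0046 to 0.24). For ct the 2 groups nevertheless did not overlap, as for 3 of 7 members in all, beside 38.8% of all tested probe sets.

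Genes of the light response stood lower in the same comparison. Of 22 tested photoreceptor effector genes 15 fell and 2 rose, with a median log2 fold of -0.89, beside -0.10 over the 7 members and -0.03 over all tested probe sets. The steepest falls were those of the channel gene trpl (-3.26) and the scaffold gene inaD (-2.60), and the rises were those of Galphaq, a G protein subunit gene (0.95), and prom, which encodes a membrane protein of the rhabdomere (0.61). The Galphaq probe set averaged 123 in CS heads, near the signal at which the filter was set.

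Set against CS heads, the IP arrays held the same members on the high side. This comparison uses the IP arrays of the first and the CS arrays of the second, so it is not separate support. The log2 folds were 2.53 for Pph13 (SE 0.08, limma adjusted p = 8.62e-10), 2.37 for eya (SE 0.11, limma adjusted p = 8.82e-09), 2.01 for gl (SE 0.12, limma adjusted p = 5.53e-08) and 1.30 for so (SE 0.07, limma adjusted p = 4.32e-08). Onecut was lower, at -0.66 (SE 0.08, limma adjusted p = 2.03e-05). The fifth member called higher was ct, at 0.26 (SE 0.09, limma adjusted p = 0.0251). The ct call was lost without IP replicate 2 (0.18, limma adjusted p = 0.0739) and without CS head replicate 1 (0.25, limma adjusted p = 0.0507). With quantile scaling it was lost as well (0.21, limma adjusted p = 0.0776), and with the values as deposited (0.23, limma adjusted p = 0.0628), in a range of 0.00459 to 0.0776 over all alternatives.

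In IP against CS heads 5 of 7 members were thus called higher, where 26.5% of tested probe sets were, and 1 of 7 lower, where 34.6% were. The arrays did not overlap for 6 of 7, against 48.8%. For oc the log2 fold was 0.09 (SE 0.27, limma adjusted p = 0.788), and without IP replicate 1 it was -0.31 and passed (limma adjusted p = 0.00752, in a range of 0.00752 to 0.856 over all alternatives). The photoreceptor effector genes had no common direction here, with 6 of 22 higher and 8 lower and a median of -0.15. For trpl, a gene with a log2 fold of 2.74 in IP over Rh1 heads, the value against CS heads was -0.52.

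**Figure D3:**
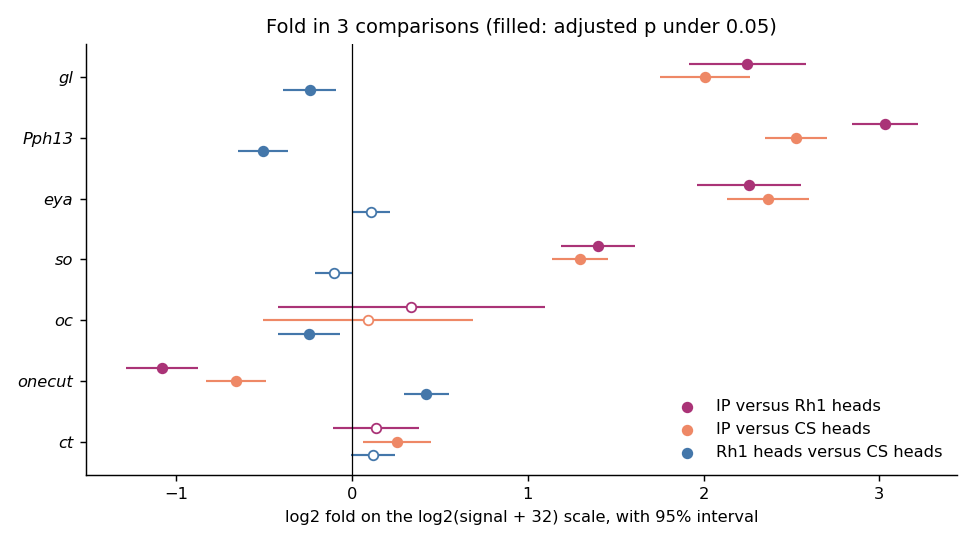
Log2 fold of each member in the 3 comparisons, with 95% intervals from limma. Filled points have an adjusted p under 0.05 and open points do not. Pph13, eya, gl and so stand between 1.30 and 3.03 in both comparisons of IP, and all members lie between -0.51 and 0.42 in Rh1 heads versus CS heads.

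By level, the order of groups was IP, CS heads, Rh1 heads for Pph13, with each step beyond the spread of the arrays. For gl the order was the same, but the 2 head groups overlapped. For so and eya IP came highest and the head groups could not be ordered. For onecut the order was Rh1 heads, CS heads, IP, with no overlap. For ct the arrays of IP and of Rh1 heads all lay above those of CS heads, but the fold between the head groups was not called. IP and Rh1 heads overlapped and could not be ordered. For oc IP could not be ordered. Its replicate 1 lay above every head array, while its other arrays lay below every CS head array and within the range of Rh1 heads. Rh1 heads were called lower than CS heads, but their arrays overlapped.

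Other regulators of the eye were read from lists. The lists were chosen with earlier results of these data known, and are described by their counts. Of 7 tested genes of the retinal determination network, the regulators that found the eye field, 0 rose and 2 fell in IP over Rh1 heads, with a median log2 fold of -0.22. The falls were those of Optix, a Six-class homeodomain gene related to so (-0.46, SE 0.09, limma adjusted p = 0.00212), and danr (-0.35, SE 0.10, limma adjusted p = 0.0165). The Pax6 gene toy spread widely in IP, with 1438, 325, 722 and 252 on replicates 1 to 4, against 1078 to 1242 in Rh1 heads. Its log2 fold of -1.03 (SE 0.44) did not pass (limma adjusted p = 0.0835).

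Of 15 tested genes of photoreceptor and cone cell specification 1 rose and 2 fell, with a median of 0.11. The rise was that of boss, the R8 ligand of the Sevenless receptor (1.78, SE 0.47, limma adjusted p = 0.0119). Its IP signals were 3835, 2174 and 2952 on replicates 1, 2 and 3, while replicate 4 had 605 and lay close to the 494 to 596 of Rh1 heads. The falls were those of pros, given above, and sev (-0.52, SE 0.09, limma adjusted p = 0.00101), the receptor of that ligand.

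Of 20 tested transcription factors of other neurons 2 rose and 2 fell in IP, with a median of 0.04. The LIM-homeodomain gene ap fell by 1.41 (SE 0.14, limma adjusted p = 2.83e-05) and dsx, the sex-determination regulator, fell by 0.70 (SE 0.23, limma adjusted p = 0.0297). The dsx signals in IP were 110, 115, 129 and 277 on replicates 1 to 4, against 235 to 277 in Rh1 heads, so that the groups overlapped. The homeodomain genes unpg (0.52, SE 0.18) and ara (0.46, SE 0.11) rose. In Rh1 heads over CS heads, where onecut rose, 3 of these 20 genes rose and 10 fell. Both ap (0.70, SE 0.07, limma adjusted p = 2.54e-06) and dsx (0.54, SE 0.07, limma adjusted p = 1.64e-05) were among the 3.

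Photoreceptor effector genes were higher in 12 of 22 cases and lower in 4 in IP over Rh1 heads, with a median of 1.10. The largest rises were those of stops, needed for phospholipase C stability (3.12), and Hdc, the histamine-synthesizing enzyme (2.84), and the largest falls were those of Galphaq (-1.33) and rdgB, a phosphatidylinositol transfer protein gene (-0.70). The Galphaq probe set averaged 91.0 in IP, below the signal at which the filter was set, and 266 in Rh1 heads. The log2 folds of all 7 members lay within the range of the effector genes.

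**Figure D4:**
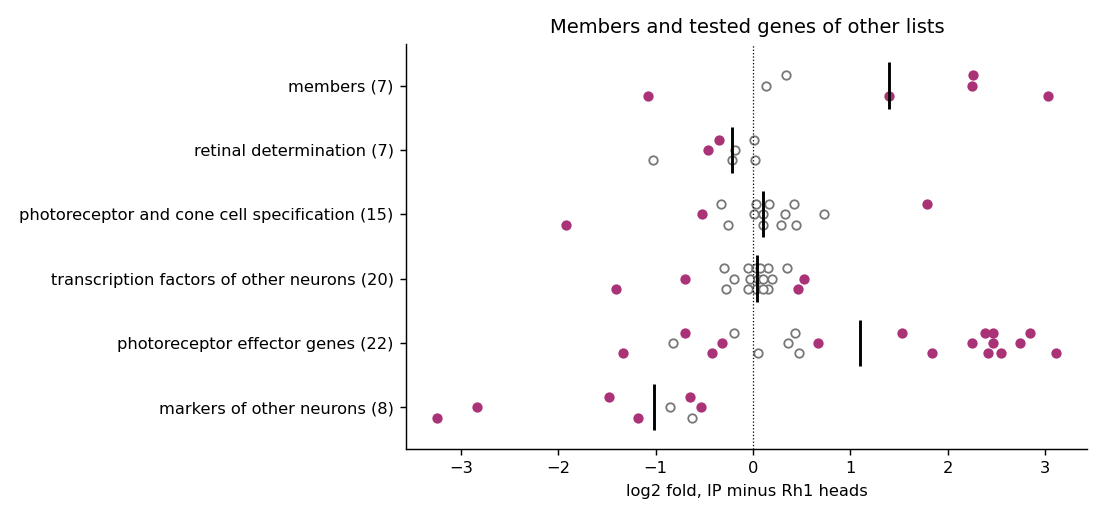
Log2 fold of IP over Rh1 heads for the 7 members and the tested genes of 5 other lists, with the number of genes in brackets. Filled points have a limma adjusted p under 0.05, open points do not, and black lines are medians. The medians are 1.40 for the members, 1.10 for photoreceptor effector genes, -0.22 to 0.11 for the 3 other lists of regulators and -1.02 for the neuronal markers.

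For each member the genes with the most similar pattern were taken by the highest Pearson correlation of log2 values over the 14 arrays, among 7809 other genes. The 14 arrays belong to 3 groups and are not independent points, so these correlations are a description and carry no test. The closest genes were CG4789, CG18324 and Sidpn for Pph13 (0.993, 0.993 and 0.992), Hsp27, mora and CG10462 for gl (0.989, 0.989 and 0.988), Usp8, CG42365 and CG11560 for eya (0.996, 0.995 and 0.995) and Snx3, Hsp26 and CG7945 for so (0.992, 0.991 and 0.991). They were CG5326, Elovl7 and psh for onecut (0.985, 0.981 and 0.980), and Ptpa, CG18266 and CG11686 for ct (0.910, 0.881 and 0.875).

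For oc they were CG12374, twin and CG9281 (0.864, 0.853 and 0.848). The gene twin, which encodes a subunit of the CCR4-NOT deadenylase, had 2430 on IP replicate 1 and 401, 386 and 397 on the 3 others. It was chosen by its correlation with oc, so a pattern like that of oc is no separate result. Hsp26 and Hsp27 encode small heat shock proteins. Hsp26 averaged 4577 in IP and 609 in Rh1 heads, and Hsp27 averaged 1004 and 254.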

How the data were processed

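Per the labels' protocols, cRNA for the head arrays was made from total RNA by Affymetrix's standard procedure, while for the immunoprecipitates the labels in hand stop short of that step. The authors deposited 1 linear intensity per probe set and array for 14010 probe sets. Neither the probe set algorithm nor the scaling target is given in the sources used here. The 44 control probe sets served only to judge RNA quality. Arrays were scaled to the mean of their 2% trimmed means (deposited values 309.3 to 371), and values were log2(signal + 32). Names came from the platform's gene table (12442 probe sets with 1 gene, 327 with several, 1197 unnamed here), of which 12393 matched RefSeq's Release 6 gene table by identifier and no symbol changed. No coordinates are given, since no build is named for the arrays, and no sequence source was used here.

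A comparison was fitted on the arrays of its 2 groups alone, with limma 3.58.1 and R 4.3.3 (lmFit, eBayes with trend, two-sided, Benjamini-Hochberg adjustment over 9776 tested probe sets). The fit was also run on simulated data, in which each value was drawn independently. These held no difference shared by a whole array, such as one of RNA quality, so they do not test the calls against it. For list genes with several probe sets the one with the highest mean was used. Named genes are all members, up to 2 of the largest called rises and falls of a list in each comparison, and the 3 most similar genes. Others are nSyb, brp and elav, as general neuronal genes, and toy, trpl, lz, emc, repo and Pdh, chosen after their values were seen. Groups and head replicate numbers came from the labels, and IP replicates are numbered in accession order, which pairs nothing. Replicates had at most 1 identical value in common. The members, lists and tests were chosen with earlier results of these data known. Alternatives were other pseudocounts, filters, scalings, array weights, a replicate block, no trend in eBayes, 1 fit over every array and fits that leave out arrays. Numbers 1 to 4 are shared by Rh1 and CS heads, but correlations of same-numbered deviations from group means ran from -0.11 to 0.10, so the numbers were not taken as pairs. Python 3.11.15 with pandas 2.3.3, numpy 2.4.6 and matplotlib 3.10.9 made the tables and figures.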

Additional observations from a re-analysis of the deposited data

Results flagged for a closer look

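Of 21 sets of arrays examined (7 genes in 3 groups), 3 held an array far from the others by Dixon's test, where chance gives about 1 in 20. The IP signal of oc on replicate 1 was 664, and the gap to the next array was 0.944 of the whole range. The IP signal of Pph13 on replicate 3 was 1154, with a gap of 0.919 of a narrow range that began at 1018. The Rh1 head signal of ct on replicate 3 was 706, with a gap of 0.855 of a range that began at 636.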

How the results depend on the processing

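Over 445 refits of the members' folds, 432 kept direction and side of the threshold, 8 lost the call, 2 gained it and 3 turned, all 3 of oc. The turned oc values were -0.062 (IP over Rh1 heads) and -0.31 (IP over CS heads) without IP replicate 1 (leaving out 1 array at a time, -0.062 to 0.50 and -0.31 to 0.26), and -0.17 over CS heads with array weights. Members higher in IP over Rh1 heads numbered 4 in every alternative. With the filter at the 50th percentile onecut was no longer tested, so members lower in either IP comparison and members higher in Rh1 heads were 0. With the fit of all 14 arrays, which takes the spread of IP into the head comparison, Rh1 heads had 1 member lower and 3021 probe sets called instead of 5291. With the values as deposited 2 members were higher there, the second being eya (0.14, limma adjusted p = 0.0458). Array weights gave 6965 calls in IP over Rh1 heads instead of 4638; the cause was not tested.

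Leaving out 1 array at a time, members higher in Rh1 heads numbered 1 to 2 (2 without CS head replicate 2, with eya at 0.13 and limma adjusted p = 0.0426) and members lower 2 to 3. Members lower in IP over CS heads numbered 1 to 2. With the replicate block, Rh1 heads had 3 members lower, 1 higher and 4703 calls, and no member's call changed. No gene had another probe set to set beside its value. Signals near 100 are limited by the unknown background.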

Other observations

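The Runx-family gene lz, a regulator of cell choice in the developing retina, was singled out after its values were seen. It was not tested, because its mean over all arrays fell below the filter. Its signals in IP were 301, 165, 328 and 664 on replicates 1, 2, 3 and 4. They were 56.2 to 81.1 in Rh1 heads and 27.3 to 56.7 in CS heads, so every IP array lay above every head array. The helix-loop-helix gene emc, which is known to restrain neuronal fate, had 6476, 1875, 4659 and 3078 in IP, with a log2 fold over Rh1 heads of 0.72 (SE 0.33) that did not pass (limma adjusted p = 0.0966). It was higher in Rh1 heads than in CS heads, by 1.05 (SE 0.10, limma adjusted p = 1.84e-06).

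Glial markers fell in 5 of 9 tested cases and rose in 2 in IP over Rh1 heads, while repo, the glial homeodomain regulator, had a mean signal of 481 ± 43.4 (SD, n = 4) in IP, where Rh1 heads had 472 ± 126.2 (SD, n = 4). Muscle markers fell in 7 of 8 cases, with a median log2 fold of -2.48, fat body markers in 6 of 8 (median -2.19) and antennal markers in 3 of 5 (median -1.70).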
